A study of Mus musculus with 8 samples.

Results

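The mouse Hox genes encode transcription factors with a homeodomain, and they lie in 4 clusters in the order in which they are used from head to tail. Those of low paralog number are active from the hindbrain downwards, and those of high paralog number only towards the tail. In the spinal cord, combinations of Hox proteins set which motor neurons and interneurons form at the neck, forelimb, chest, hindlimb and tail levels, and in this they bind DNA together with the Pbx and Meis proteins. A row of the array belonged to the Hox genes where its annotation held 1 gene symbol and that symbol was a Hox letter from a to d with a number. The rule found 33 Hox genes among 30176 symbols in all, and each of the 33 was measured by 1 row.

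Whole spinal cords of mouse embryos at E14.5 were measured on 8 arrays, 4 from Nfix-/- embryos, homozygous mutants that lack Nfix, and 4 from wild-type littermates (Nfix+/+). Nfix encodes a transcription factor of the Nuclear Factor One family that is made by neural stem cells of the cord. All embryos came from matings of heterozygous parents on the C57Bl/6J background, and the arrays of each genotype are labelled as biological replicates 1 to 4. The comparison asks how transcripts differ in the cord when Nfix is absent, and no purified cell type was measured, so that fewer cells making a transcript and less transcript per cell cannot be told apart.

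The values are log2 signals. The authors computed them by SST-RMA, which corrects background, makes the distributions of the arrays alike and summarises the probes of a row. Nfix itself had log2 signals of 8.90, 8.88, 8.83 and 8.81 in Nfix-/- replicates 1 to 4, against 9.36, 9.18, 9.25 and 9.19 in wild-type replicates 1 to 4. The genotypes did not overlap, and Nfix-/- was lower by 0.39 on the log2 scale (limma, standard error 0.0544, adjusted p = 0.00240). Which part of Nfix is deleted and where the probes lie within it was not analysed here. All differences are Nfix-/- minus wild-type. Over all rows past both the adjusted p and a 1.5-fold cut-off, 522 (0.791%) were higher and 829 (1.26%) lower in Nfix-/-, a balance that runs opposite to the one the study states. The study's counts of higher and lower genes are nearly those given here with the directions exchanged. Its text describes fewer embryos per genotype than the arrays labelled here. The reason for the exchange was not tested.

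The array medians ran from 5.08 to 5.21. Wild-type replicate 2 stood apart by the highest median of its negative-control probes, 4.88, followed by Nfix-/- replicate 4 with 4.60, and these arrays also had the lowest weights in limma, 0.339 and 0.546. The 95th percentile of the negative controls, 7.27 to 7.59 on the 8 arrays, is used below as a mark of dim signal. Of the 33 Hox genes 16 lay above it on at least 4 arrays, and 13 lay above it on none, including all 9 genes of paralog numbers 11 to 13. Xist, the RNA made from the inactive X chromosome, was 4.17 to 4.33 on Nfix-/- replicates 1 and 2 and on wild-type replicate 3, and 10.40 to 11.12 on the other arrays. The part of these differences in the Hox values was not tested.

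Of 10 markers of spinal cord 8 lay above the negative-control mark on at least 4 arrays. All 4 measured markers of the tail bud and all 4 of the limb lay below it on every array. The mean of the tail bud markers was 6.30, 6.08, 6.26 and 6.12 in Nfix-/- replicates 1 to 4, against 6.23, 6.06, 6.23 and 6.17 in wild-type replicates 1 to 4, and that of the limb markers was 6.20, 6.07, 6.14 and 6.03 in Nfix-/-, against 6.14, 5.86, 6.09 and 6.06 in wild-type. In both lists Nfix-/- replicates 1 and 3 were the highest arrays and wild-type replicate 2 the lowest. The genes of paralog number 11 described below had this order too, but it was not particular to these lists. The upstream regulators and axial signals listed below had the same highest and lowest arrays, at 6.55 and 6.50 against 6.36. Spinal cord and cartilage markers also averaged highest on Nfix-/- replicate 1 (9.51 and 6.00) and lowest on wild-type replicate 2 (9.35 and 5.80). The part of these lists in the Hox values was not tested.

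Regulatory sequence near the start of 4 Hox genes is shown because 2 of them (Hoxa10 and Hoxd10) varied most between arrays among the genes in the promoter table, and the other 2 (Hoxa2 and Hoxd12) passed the test between genotypes. Each runs from 250 bases before the annotated start to 50 after it, on the gene's own strand, from RefSeq on GRCm38.p6. Capitals mark, on either strand, the letters TTGGC, the core of a Nuclear Factor One half-site, and TGATTNAT, a sequence bound by Pbx and Hox proteins together. They lie at chr6:52234890-52235189 (minus strand) for Hoxa10, which has 2 windows in the table, chr2:74691641-74691940 (plus) for Hoxd10, chr6:52164782-52165081 (minus) for Hoxa2 and chr2:74674763-74675062 (plus) for Hoxd12. The other Hoxa10 window, at chr6:52240805-52241104 (minus), held no match to either sequence and is not shown.
Hoxa10: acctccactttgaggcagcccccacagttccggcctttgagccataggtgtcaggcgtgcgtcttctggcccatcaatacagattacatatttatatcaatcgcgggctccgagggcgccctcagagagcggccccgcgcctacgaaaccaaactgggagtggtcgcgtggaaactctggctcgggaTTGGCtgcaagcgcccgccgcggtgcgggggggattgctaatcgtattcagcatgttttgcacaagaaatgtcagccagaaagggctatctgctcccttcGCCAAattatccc
Hoxd10: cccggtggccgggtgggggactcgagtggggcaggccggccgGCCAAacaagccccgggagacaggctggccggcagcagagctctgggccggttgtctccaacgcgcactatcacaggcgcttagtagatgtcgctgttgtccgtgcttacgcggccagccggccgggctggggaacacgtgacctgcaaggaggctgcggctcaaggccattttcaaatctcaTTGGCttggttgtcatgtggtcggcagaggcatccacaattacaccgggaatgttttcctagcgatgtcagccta
Hoxa2: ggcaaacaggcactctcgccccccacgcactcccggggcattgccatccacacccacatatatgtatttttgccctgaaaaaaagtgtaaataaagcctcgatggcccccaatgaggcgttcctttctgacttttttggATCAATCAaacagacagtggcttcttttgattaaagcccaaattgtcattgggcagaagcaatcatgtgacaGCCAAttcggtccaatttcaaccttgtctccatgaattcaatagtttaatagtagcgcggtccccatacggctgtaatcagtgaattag
Hoxd12: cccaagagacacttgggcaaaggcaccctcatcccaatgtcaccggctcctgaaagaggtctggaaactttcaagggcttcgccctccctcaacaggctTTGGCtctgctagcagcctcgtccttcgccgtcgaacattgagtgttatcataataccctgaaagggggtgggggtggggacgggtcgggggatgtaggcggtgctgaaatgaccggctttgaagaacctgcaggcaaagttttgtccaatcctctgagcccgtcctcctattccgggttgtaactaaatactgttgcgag

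The table held 19 such windows for 17 of the Hox genes. TTGGC occurred in 13 of the 19 windows and in 46.7% of all 32851 windows of the table. The full palindromic Nuclear Factor One site, TTGGC and its reverse complement with 5 bases between them, occurred in 0 of the 19 and in 0.0365% of all. TGATTNAT, in Hoxa2 and in 1 window of Hoxd11, occurred in 2 of the 19 and in 3.22% of all, and TTTATNG, a site of the Cdx proteins, in 1 of the 19 (that of Hoxb8) and in 10.9% of all. The windows of Hox genes held a median of 20 CG pairs, against 7 over all windows. A match is a description of the letters and not a measured binding site.

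Of the Hox genes of paralog number 10, Hoxc10 and Hoxd10 differed more between arrays of 1 genotype than almost any other gene on the array. Hoxc10, which with its paralogs gives motor neurons of the hindlimb level their identity, had log2 signals of 8.97, 8.37, 8.71 and 4.73 in Nfix-/- replicates 1 to 4, against 6.64, 7.93, 8.53 and 7.98 in wild-type replicates 1 to 4. In signal, Nfix-/- replicate 4 lay 12.5-fold below the lowest of the other Nfix-/- arrays, and wild-type replicate 1 lay 2.43-fold below the lowest of the other wild-type arrays, while the genotypes overlapped. The range of signal was 18.8-fold within Nfix-/- and 3.69-fold within wild-type. Both low arrays lay under their own negative-control mark, 7.49 on Nfix-/- replicate 4 and 7.32 on wild-type replicate 1, and the other 6 lay above theirs, so these folds compare signals and do not give a fold of transcript. The means were 7.69 ± 1.99 in Nfix-/- and 7.77 ± 0.798 in wild-type (SD, n = 4 each), which differed by -0.08 (limma, standard error 0.905, adjusted p = 0.963). Without Nfix-/- replicate 4 the difference was 0.91 (adjusted p = 0.157 from limma).

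Hoxd10, its paralog in the D cluster, had log2 signals of 8.33, 7.14, 7.99 and 4.38 in Nfix-/- replicates 1 to 4, against 4.91, 6.83, 7.61 and 6.76 in wild-type replicates 1 to 4. The same arrays were lowest, Nfix-/- replicate 4 by 6.76-fold and wild-type replicate 1 by 3.59-fold in signal against the next array of their own genotype. On Nfix-/- replicate 4 the signal lay below the median of that array's negative controls, 4.60, and 3 of the 8 arrays lay above their mark. The genotype difference was 0.43 (standard error 0.896, adjusted p = 0.769 from limma), and without Nfix-/- replicate 4 it was 1.29 (adjusted p = 0.175), without wild-type replicate 1 it was -0.10. Hoxa10 had the same lowest and highest arrays over a smaller range, at 7.58, 7.04, 7.26 and 6.13 in Nfix-/- and 6.56, 6.93, 7.31 and 7.08 in wild-type replicates 1 to 4. Its difference was 0.03 (standard error 0.296), which leaving out single arrays moved to between -0.16 and 0.32.

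Hoxd9, the neighbour of Hoxd10, followed with 7.64, 7.17, 7.39 and 6.44 in Nfix-/- and 6.98, 7.13, 7.37 and 7.32 in wild-type replicates 1 to 4. In all 4 of these genes Nfix-/- replicate 4 was the lowest array, wild-type replicate 1 the next lowest and Nfix-/- replicate 1 the highest. Nfix-/- replicate 3 came second in 3 of the 4. The array order was thus shared by genes of the A, C and D clusters on chromosomes 6, 15 and 2. Leaving out Nfix-/- replicate 4 lowered the within-genotype SD of Hoxc10 to 0.646, against 1.52 with it, and that of Hoxd10 to 0.967.

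**Figure D1:**
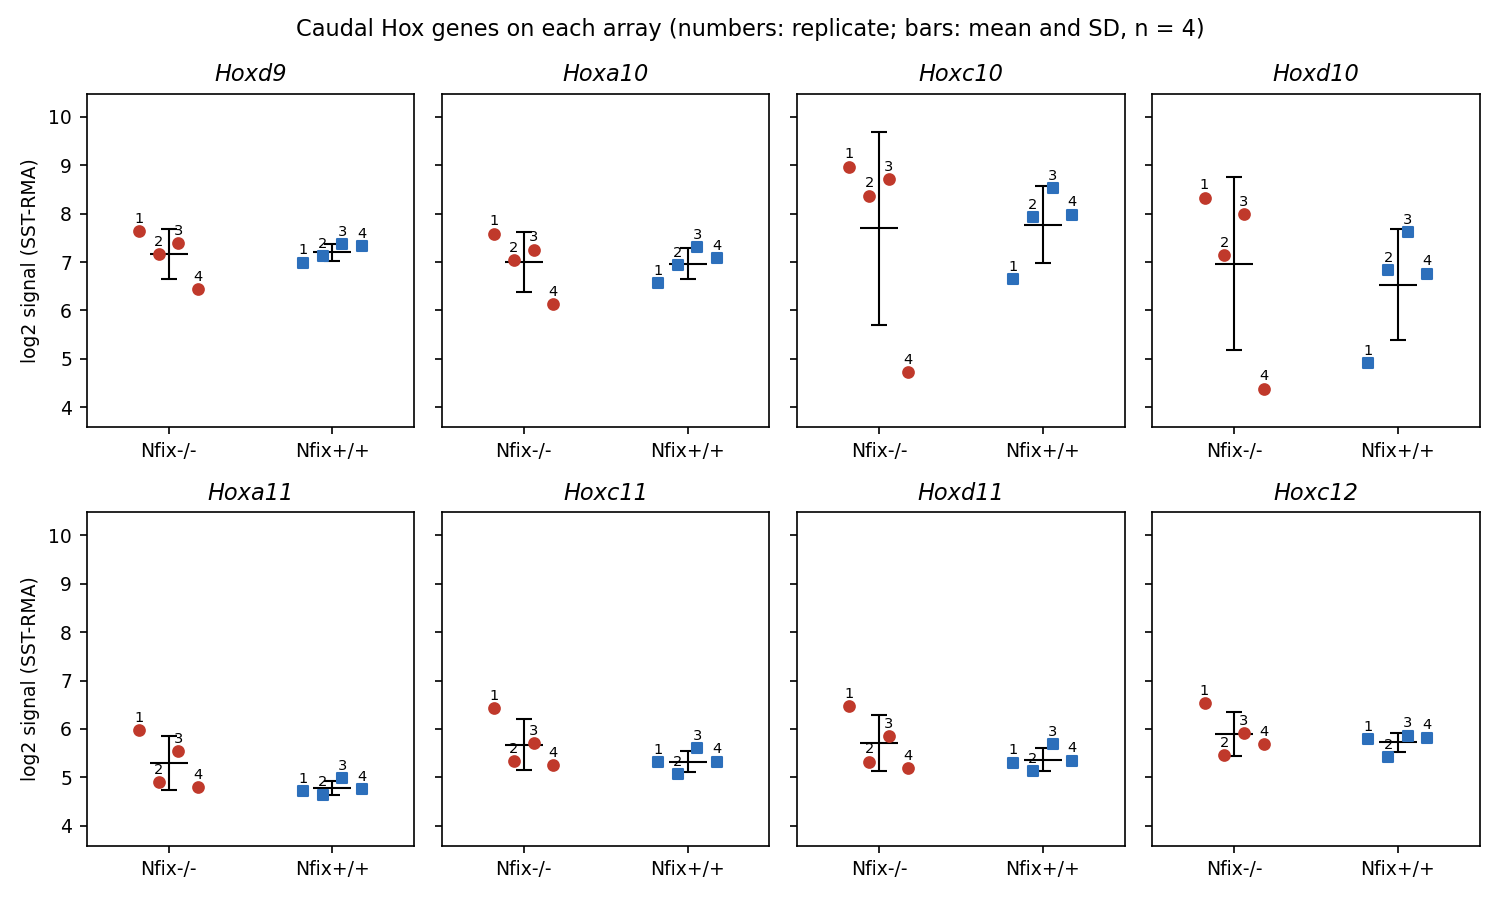
Log2 signal (y axis) of 8 caudal Hox genes on the 4 Nfix-/- arrays (left, circles) and the 4 wild-type arrays (right, squares) of each panel, with replicate numbers and black bars for mean and SD (n = 4). Nfix-/- replicate 4 and wild-type replicate 1 are the lowest arrays for Hoxd9, Hoxa10, Hoxc10 and Hoxd10, and Nfix-/- replicate 1 is the highest for all 8 genes.

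Paralog number 11 showed a different lowest array. Hoxa11, which is used in the hindlimb-level cord and in limb and kidney, had log2 signals of 5.98, 4.90, 5.54 and 4.79 in Nfix-/- replicates 1 to 4, against 4.72, 4.64, 4.99 and 4.76 in wild-type replicates 1 to 4. Nfix-/- replicates 1 and 3 stood above the other arrays and the rest overlapped. Its difference of 0.53 was the highest among the Hox genes over all arrays and did not pass the test (standard error 0.246, adjusted p = 0.160 from limma). Without Nfix-/- replicate 1 it was 0.30, and without Nfix-/- replicate 4 the differences of Hoxd10 and Hoxc10 given above were larger than its 0.70.

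Hoxc11 had 6.42, 5.34, 5.70 and 5.25 in Nfix-/- and 5.31, 5.07, 5.60 and 5.33 in wild-type replicates 1 to 4, and Hoxd11 had 6.47, 5.32, 5.85 and 5.19 in Nfix-/- and 5.30, 5.13, 5.69 and 5.35 in wild-type. Nfix-/- replicate 1 was again highest and Nfix-/- replicate 3 second in both, as in Hoxa11 and Hoxc12, 4 genes of 4. The highest wild-type array was replicate 3 in these 4 genes. Wild-type replicate 2 was the lowest of all arrays in 7 of the 9 genes of paralog numbers 11 to 13. It was also lowest for the means of the spinal cord, cartilage, tail bud and limb markers, as given above. The differences of Hoxc11 and Hoxd11 were 0.35 and 0.34 (adjusted p = 0.339 and 0.396 from limma), and without Nfix-/- replicate 1 they were 0.10 and 0.09. The signal of these genes lay below the negative-control mark on every array, as did that of Hoxc12, with 6.53, 5.46, 5.91 and 5.68 in Nfix-/- and 5.78, 5.42, 5.86 and 5.82 in wild-type.

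Skeletal muscle markers shared a part of this array order. Their mean over 9 genes was 6.62, 6.22, 6.00 and 6.04 in Nfix-/- replicates 1 to 4, against 5.79, 5.74, 6.32 and 5.75 in wild-type replicates 1 to 4. Nfix-/- replicate 1 and wild-type replicate 3, the highest arrays of their genotypes for paralog number 11, were also the highest of their genotypes for muscle, while Nfix-/- replicate 3, second for paralog number 11, was the lowest of its genotype. Of the 9 markers 1 lay above the negative-control mark on at least 4 arrays and 6 lay below it on every array. Over all rows 11.5% passed the test as higher in Nfix-/- and 10.5% as lower. In this list 2 genes of 9 passed as higher (Myl1 and Tnnt1) and 1 as lower (Myf5). Their part in the Hox values was not tested. Markers of cartilage and vertebrae averaged 5.82 to 6.00 in Nfix-/- and 5.80 to 5.99 in wild-type arrays, with 7 of 8 below the mark on every array. How far each dissected cord reached towards the tail was not measured.

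The spread between arrays differed by paralog number. The within-genotype SD, pooled over both genotypes, had a median of 0.0752 for the 6 genes of paralog numbers 1 to 3, 0.126 for the 5 of numbers 4 and 5, 0.0973 for the 7 of numbers 6 to 8, 0.117 for the 3 of number 9 and 0.382 for the 12 of numbers 10 to 13. Over all 65956 rows the median was 0.110 and the 95th percentile 0.373. Of the 33 Hox genes 7 (21.2%) exceeded that percentile, namely Hoxd9, the 3 genes of number 10 and the 3 of number 11, and Hoxc12 lay just under it at 0.356. None of the 18 genes of numbers 1 to 8 did, their SD running from 0.0305 to 0.266. Only 3 rows had a larger SD than Hoxc10 and 4 a larger one than Hoxd10. Among the 8839 symbols above the negative-control mark on at least 4 arrays, Xist alone exceeded Hoxc10.

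**Figure D2:**
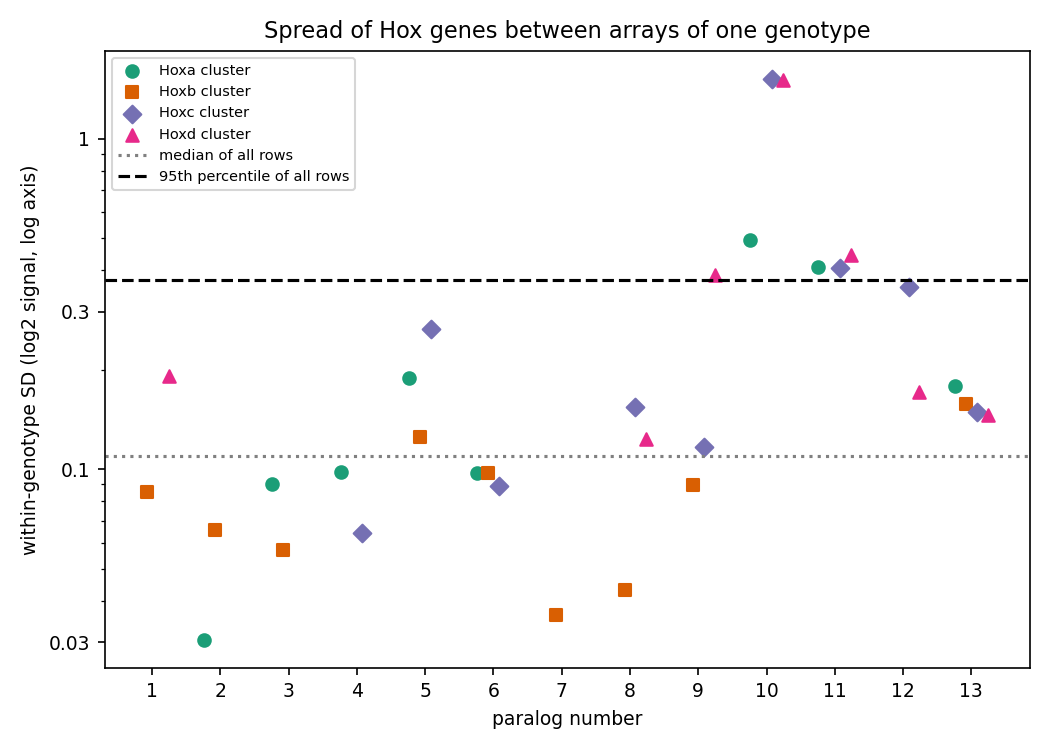
Within-genotype SD of the log2 signal (y axis, log scale) of each of the 33 Hox genes against paralog number (x axis), with a colour and marker for each cluster. The dotted line is the median of all rows, 0.110, and the dashed line their 95th percentile, 0.373, which 7 genes of paralog numbers 9 to 11 exceed.

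The 4 genes of paralog number 13, the most caudal, did not share this spread. Their SD ran from 0.146 to 0.178, at signals below the negative-control mark on every array. Genes of paralog number 9 other than Hoxd9 were also even between arrays. Hoxb9 had 10.72, 10.66, 10.62 and 10.63 in Nfix-/- and 10.39, 10.54, 10.61 and 10.66 in wild-type replicates 1 to 4, and Hoxc9, which sets the chest level and holds back forelimb motor neuron genes, had 9.12, 9.13, 9.08 and 8.91 in Nfix-/- and 8.91, 9.21, 9.05 and 9.14 in wild-type. Their differences were 0.10 and -0.02 (adjusted p = 0.281 and 0.885 from limma). In Hoxc9 the lowest array was Nfix-/- replicate 4 and the next wild-type replicate 1, the arrays that were lowest for paralog number 10.

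Only 3 of the 33 Hox genes, of the neck and forelimb levels, were highest on the array where paralog number 10 was lowest. Hoxc5, which with Hoxa5 is needed for the motor neurons of the diaphragm, had 7.40, 7.32, 7.46 and 7.89 in Nfix-/- and 7.83, 7.83, 7.29 and 7.43 in wild-type replicates 1 to 4. Hoxa5 had 9.19, 9.11, 9.12 and 9.44 in Nfix-/- and 9.43, 9.23, 8.95 and 9.01 in wild-type, and Hoxc8, which acts in forelimb motor neurons, had 10.05, 10.25, 10.06 and 10.50 in Nfix-/- and 10.03, 10.003, 10.09 and 10.14 in wild-type. Nfix-/- replicate 4 was the highest of the 8 arrays in these 3 genes and the lowest in 8 of the 33. Among paralog numbers 1 to 8 it was the lowest in Hoxb2 and Hoxd8, at 7.36 and 7.28. Wild-type replicate 1 was among the 3 highest in Hoxa5 and Hoxc5 and next to lowest in Hoxc8. The genotypes overlapped in all 3, with differences of -0.08, 0.06 and 0.15 for Hoxc5, Hoxa5 and Hoxc8.

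**Figure D3:**
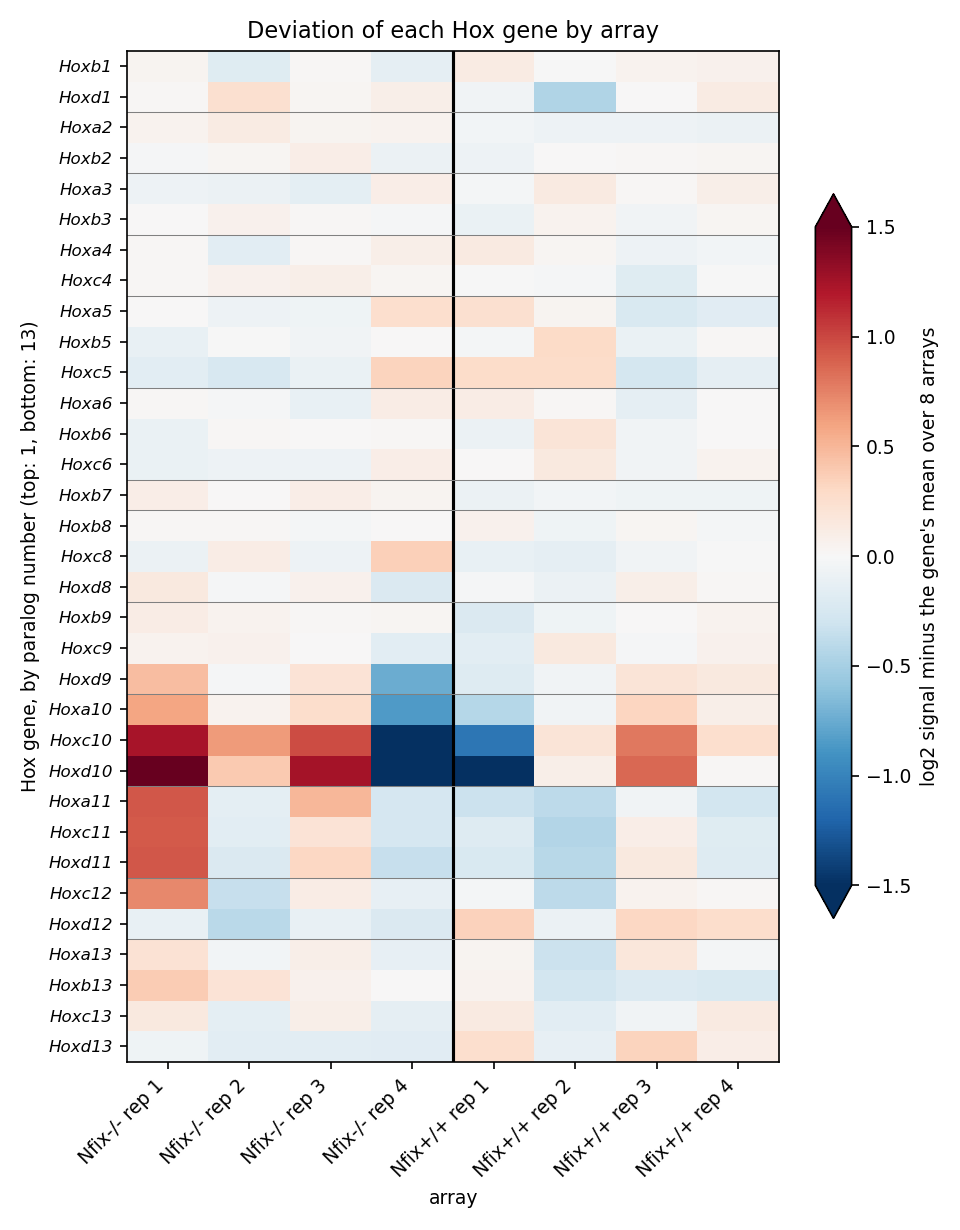
Deviation of the log2 signal from each gene's mean over 8 arrays (colour scale, red above and blue below) for the 33 Hox genes, ordered by paralog number from top to bottom, on the 4 Nfix-/- arrays (left) and the 4 wild-type arrays (right). The strongest colours are in paralog number 10. They are blue on Nfix-/- replicate 4 (Hoxc10 at 4.73, Hoxd10 at 4.38) and for Hoxd10 on wild-type replicate 1 (4.91), and red for Hoxd10 on Nfix-/- replicate 1 (8.33).

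The remaining genes of paralog numbers 4 to 8 spread less than Hoxa5, Hoxc5 and Hoxc8, with a within-genotype SD of at most 0.126. That was the SD of Hoxb5, which with Hoxd8 (0.123) lay above the median of all rows, 0.110. Hoxb8, which acts in the dorsal cord in the handling of pain and itch, had 10.83, 10.83, 10.79 and 10.83 in Nfix-/- and 10.88, 10.75, 10.84 and 10.78 in wild-type replicates 1 to 4, a range of 1.09-fold over all arrays and a difference of 0.00. Hoxb5 had 9.18, 9.29, 9.25 and 9.31 in Nfix-/- and 9.27, 9.58, 9.20 and 9.32 in wild-type, with wild-type replicate 2 above all others, and a difference of -0.08 (adjusted p = 0.512 from limma). Hoxa6, Hoxb6 and Hoxc6, of the forelimb and upper chest levels, differed by 0.00, -0.03 and -0.07, Hoxa4 by -0.02 and Hoxd8 by -0.01, each with overlapping genotypes. Over the 18 genes of paralog numbers 1 to 8 the fold between the highest and the lowest array ran from 1.09 to 1.62.

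Between genotypes few Hox genes differed. With limma over all rows, 2 of the 33 were higher in Nfix-/- at an adjusted p under 0.05 (Hoxa2 and Hoxb13) and 1 was lower (Hoxd12). These are 9.09% of the Hox genes in either direction, beside 22.0% of all rows, of which 11.5% were higher and 10.5% lower. The genotypes did not overlap in 4 of the 33 (12.1%), namely Hoxa2, Hoxc4, Hoxb7 and Hoxd12, beside 28.1% of all rows. The share called was thus below that of all rows. An unadjusted p under 0.05 was reached by 5 Hox genes, and over all rows by at least the 22.0% that passed the adjusted test. The median unadjusted p of all rows was 0.135 from limma. The median difference of the Hox genes was 0.01, that of all rows 0.02 and that of rows above the negative-control mark on at least 4 arrays 0.09. The difference was within 0.2 of 0 on the log2 scale in 26 of the 33.

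**Figure D4:**
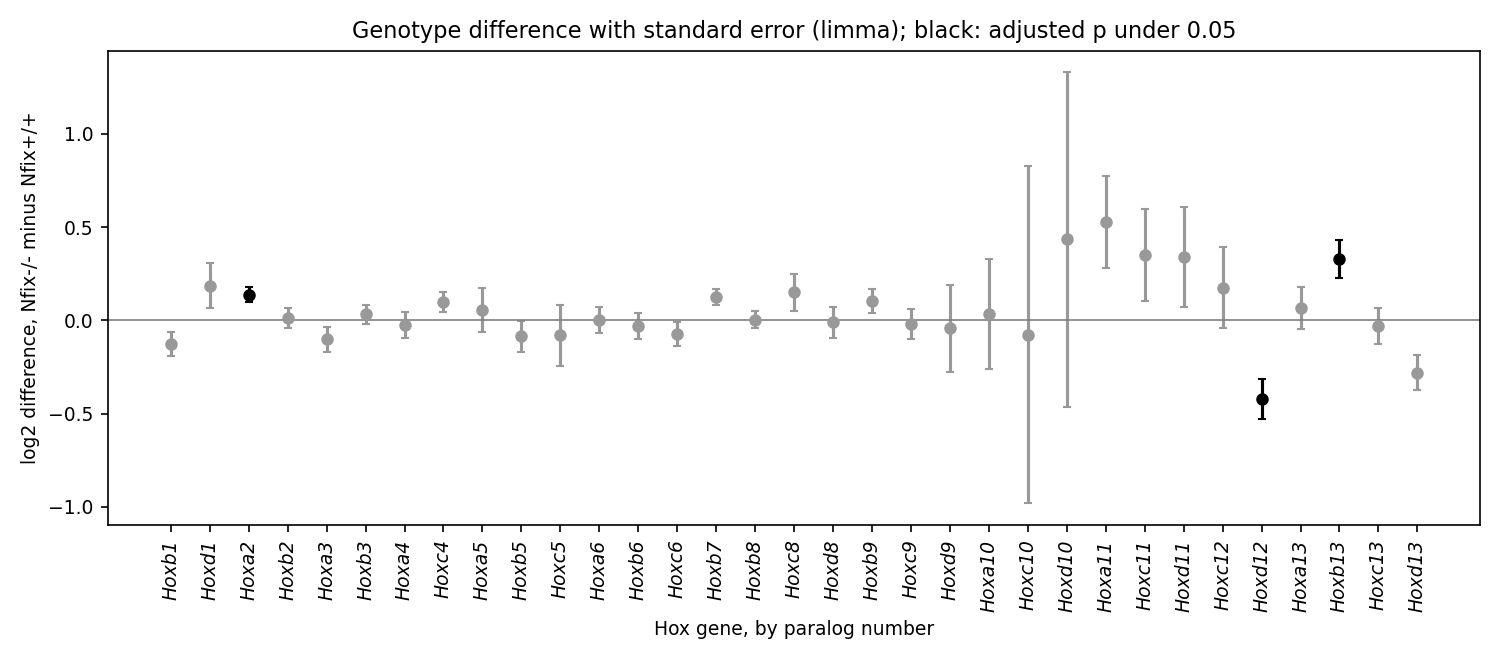
Log2 difference, Nfix-/- minus wild-type (y axis), of each of the 33 Hox genes in order of paralog number (x axis), with the standard error from limma. Black points passed the adjusted p of 0.05 (Hoxa2, Hoxb13 and Hoxd12), and the error bars are longest for Hoxc10 and Hoxd10, at 0.905 and 0.896.

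Hoxa2, which gives identity to the second segment of the hindbrain and reaches into the cord, was slightly higher in Nfix-/-. It had 7.39, 7.46, 7.38 and 7.38 in Nfix-/- replicates 1 to 4, against 7.29, 7.26, 7.26 and 7.25 in wild-type replicates 1 to 4, and no array of one genotype overlapped the other. The difference was 0.14 (standard error 0.0414, adjusted p = 0.0442 from limma), and the two-sided exact permutation p was 0.0286, the smallest that 4 arrays against 4 allow. Leaving out any single array ended the call, with differences of 0.12 to 0.15 and adjusted p from 0.0607 to 0.114. The call held with the one-way test of the study's methods, a robust prior and array weights (adjusted p = 0.0107, 0.0230 and 0.0291). It was lost after median scaling, at a difference of 0.17 (adjusted p = 0.0809 from limma). Quantile normalization and cyclic loess lowered the difference to 0.08 and 0.07 (adjusted p = 0.273 and 0.256 from limma). Hoxa2 lay above the negative-control mark on 3 arrays only.

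Hoxd12, a gene of the D cluster known for its part in digits and the genital region, was lower in Nfix-/-. It had 5.43, 5.14, 5.43 and 5.33 in Nfix-/- replicates 1 to 4, against 5.88, 5.46, 5.85 and 5.81 in wild-type replicates 1 to 4, and the genotypes did not overlap. The difference was -0.42 (standard error 0.108, adjusted p = 0.0266 from limma, two-sided exact permutation p = 0.0286). The call was lost without Nfix-/- replicates 2 or 4 or wild-type replicates 1, 3 or 4, one at a time, with differences of -0.52 to -0.36 over all 8 omissions and a highest adjusted p of 0.0706. It was also lost with the one-way test of the study's methods, after median scaling and after quantile normalization (adjusted p = 0.0593, 0.0530 and 0.0564). Without Nfix-/- replicate 4 and wild-type replicate 1 together the adjusted p was 0.115 from limma. Its neighbour Hoxd13 had 4.10, 4.01, 4.00 and 3.99 in Nfix-/- and 4.42, 4.04, 4.49 and 4.27 in wild-type, where wild-type replicate 2 fell inside the range of Nfix-/-. The difference of -0.28 did not pass (adjusted p = 0.0662 from limma), and without wild-type replicate 2 it was -0.37 (adjusted p = 0.00749). Both genes lay below the negative-control mark on every array.

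Hoxb13, a gene that limits the growth of the tail, was higher in Nfix-/- at very low signal. It had 4.65, 4.48, 4.34 and 4.28 in Nfix-/- replicates 1 to 4, against 4.33, 3.99, 4.07 and 4.05 in wild-type replicates 1 to 4, and wild-type replicate 1 overlapped the Nfix-/- arrays. The difference was 0.33 (standard error 0.101, adjusted p = 0.0497 from limma, two-sided exact permutation p = 0.0571). The call was lost with the one-way test of the study's methods, with a robust prior and after median scaling (adjusted p = 0.0913, 0.0515 and 0.0590). It held without Nfix-/- replicate 4 or wild-type replicate 1 and was lost without any of the other 6 arrays, with differences of 0.26 to 0.40. The call is thus at the limit of the test, on a row below the negative-control mark on every array.

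**Figure D5:**
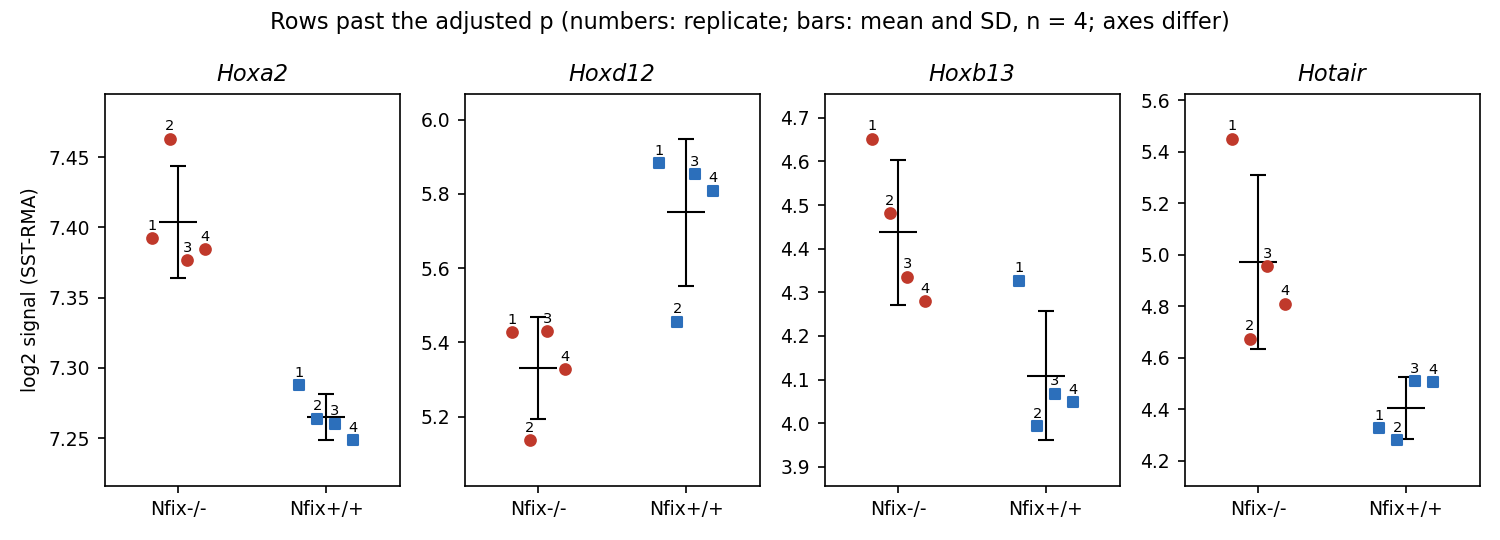
Log2 signal (y axes, which differ) of Hoxa2, Hoxd12, Hoxb13 and the non-coding RNA Hotair on the 4 Nfix-/- arrays (left, circles) and 4 wild-type arrays (right, squares), with replicate numbers and black bars for mean and SD (n = 4). The genotypes do not overlap in Hoxa2, Hoxd12 and Hotair, and wild-type replicate 1 of Hoxb13, at 4.33, lies within the Nfix-/- range.

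Further genes came near the threshold. Hoxb7 had 8.78, 8.68, 8.78 and 8.72 in Nfix-/- and 8.59, 8.64, 8.61 and 8.61 in wild-type replicates 1 to 4, without overlap, and a difference of 0.13 (adjusted p = 0.0696 from limma). It passed (adjusted p = 0.0325) where only rows above the negative-control mark on at least 4 arrays were tested, and it was then the only call among 16 Hox genes. Of all rows in that test 20.6% were higher and 0.628% lower in Nfix-/-. Hoxc4 had 8.55, 8.59, 8.61 and 8.56 in Nfix-/- and 8.52, 8.51, 8.35 and 8.52 in wild-type, also without overlap (difference 0.10, adjusted p = 0.207 from limma). Hoxb1, which marks a single hindbrain segment, had 5.79, 5.57, 5.76 and 5.62 in Nfix-/- and 5.88, 5.75, 5.81 and 5.82 in wild-type, with overlap (difference -0.13, adjusted p = 0.186). The other genes of paralog numbers 1 to 3 differed by 0.19 (Hoxd1), 0.01 (Hoxb2), -0.10 (Hoxa3) and 0.03 (Hoxb3), and those not yet given of numbers 12 and 13 by 0.18 (Hoxc12), 0.07 (Hoxa13) and -0.03 (Hoxc13), none of which passed.

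Averaged over paralog numbers 10 to 13, the log2 signal was 6.34, 5.69, 6.01 and 5.06 in Nfix-/- replicates 1 to 4, against 5.44, 5.52, 5.94 and 5.71 in wild-type replicates 1 to 4. The Nfix-/- arrays held both the highest and the lowest value, and the mean difference of 0.12 was smaller than the within-genotype SD of 0.416. It was -0.07 without Nfix-/- replicate 1 and 0.36 without Nfix-/- replicate 4. The mean difference was 0.02 for numbers 1 to 3, -0.01 for numbers 4 and 5, 0.02 for numbers 6 to 8 and 0.01 for number 9. Those of numbers 1 to 3, of numbers 6 to 8 and of number 9 turned negative under quantile normalization and under cyclic loess.

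Hoxa7, Hoxa9, Hoxb4, Hoxd3 and Hoxd4 had no row with a single symbol. They shared 4 rows with each other or with other transcripts, and these rows are not assigned to a gene here.

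Non-coding RNAs made inside the clusters were measured by 6 rows with a single symbol, of 16 RNAs listed. Hotair, transcribed from the C cluster against the direction of its Hox genes, had 5.45, 4.68, 4.96 and 4.81 in Nfix-/- replicates 1 to 4, against 4.33, 4.28, 4.51 and 4.51 in wild-type replicates 1 to 4, and the genotypes did not overlap. It was higher in Nfix-/- by 0.57 (standard error 0.156, adjusted p = 0.0334 from limma, two-sided exact permutation p = 0.0286), with the highest array again Nfix-/- replicate 1. The row lay below the negative-control mark on every array. The call was lost with the one-way test of the study's methods (adjusted p = 0.0765), and without Nfix-/- replicate 3 or any single wild-type array (differences 0.41 to 0.67 over all omissions).

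The microRNAs of the clusters are shown with their seed, bases 2 to 8, in capitals, since 3 of the 6 rows belong to these 2 sequences. Mir10b lies in the D cluster, and the same mature miR-196a is made from Mir196a-1 in the B cluster and from Mir196a-2 in the C cluster, at chr15:102973365-102973386 on GRCm38.p6, between Hoxc10 and Hoxc9. Sequences are from RefSeq.
mmu-miR-10b-5p: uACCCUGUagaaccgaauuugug
mmu-miR-196a-5p: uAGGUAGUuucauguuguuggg

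Mir196a-2 had 5.47, 5.62, 5.56 and 4.89 in Nfix-/- and 5.17, 5.89, 5.20 and 5.62 in wild-type replicates 1 to 4. Its lowest array was Nfix-/- replicate 4 and the next wild-type replicate 1, as in its neighbour Hoxc10. Mir10b had 6.44, 6.48, 6.26 and 6.93 in Nfix-/- and 6.10, 7.06, 5.97 and 6.57 in wild-type, with wild-type replicate 2 and Nfix-/- replicate 4 highest. None of Mir196a-1, Mir196a-2, Mir10b, Mir615 and Hoxb3os passed the test, with adjusted p from 0.0632 for Mir615 (difference -0.25) upwards, and the median difference of the 6 RNAs was 0.08.

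Genes that work with or around the Hox clusters are read beside the 11.5% of all rows that were higher and the 10.5% that were lower. Every row that passed also had an unadjusted p under 0.05, so at least 22.0% of all rows had one. Of 8 measured Hox cofactors 0 passed with limma and 2 had an unadjusted p under 0.05 (median difference 0.09), the nearest being Pbx2 and Pbx4, with differences of 0.14 and 0.13 (adjusted p = 0.0709 and 0.0727 from limma). Among 13 upstream regulators and axial signals Cdx2, a homeobox gene that activates Hox genes in the tail bud, was lower in Nfix-/- by 0.24 (adjusted p = 0.0239), none was higher and the median was 0.04. Of 11 genes that flank the clusters Snx10 was higher by 0.16 (adjusted p = 0.0210), none was lower and the median was 0.07. Both Cdx2 and Snx10 lay below the negative-control mark on every array.

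Motor neurons are the cells in which Hox patterns along the cord are best known. Of 8 measured motor neuron genes Mnx1, a homeobox gene of motor neurons, was lower in Nfix-/- by 0.30 (adjusted p = 0.0310 from limma), none was higher and the median difference was 0.01. Mnx1 lay below the negative-control mark on every array. The 3 members above it on at least 4 arrays, Isl1, Isl2 and Prph, named after their values were seen, had differences of 0.21, 0.21 and 0.19 and did not pass (adjusted p = 0.140, 0.262 and 0.227). Of 9 genes of limb and preganglionic motor columns 0 passed with limma, with a median of 0.11. An unadjusted p under 0.05 was found in 2 of the 9, beside at least 22.0% of all rows. Aldh1a2, a retinoic acid enzyme listed both here and among the axial signals, differed by 0.25 (adjusted p = 0.0626 from limma). Foxp1, the Hox accessory factor of limb motor neurons, differed by 0.11 (adjusted p = 0.0910). Which cells of the whole cord made these transcripts was not measured. Among markers of other tissues, 4 of 8 for meninges and fibroblasts were higher in Nfix-/- (Foxc1, Lum, Prrx1 and Col3a1). Their mean over the 8 ran from 8.27 to 8.39 in Nfix-/- and from 8.10 to 8.17 in wild-type arrays, and their part in the Hox values was not tested. The mean of 5 measured markers of sensory ganglia and Schwann cells ran from 8.01 to 8.14 in Nfix-/- and from 7.45 to 8.04 in wild-type, with 0 of 5 past the test in limma and 4 of 5 at an unadjusted p under 0.05. In wild-type this mean was lowest on replicate 2 and highest on replicate 4, as were Isl1, Isl2 and Prph. In Nfix-/- those 3 genes were lowest on replicate 4 and this mean on replicate 1. The part of the ganglia in the values of Isl1, Isl2 and Prph was not tested.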

How the data were processed

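RNA of whole spinal cords, extracted with a column kit, was hybridised to Affymetrix Mouse Transcriptome Arrays, 1 array per sample. The authors made gene-level values from all arrays with the SST-RMA method of the Affymetrix Expression Console, on mm10, and the deposited values are log2 signals. They were used as they are. The number of arrays limits the precision. Control rows (6732) were left out, and 65956 rows were tested, of which 30638 carried 1 symbol, 2176 several and 33142 none in the platform annotation. Genotypes were compared with limma 3.58.1 (lmFit and eBayes) in R 4.3.3, unpaired as in the study's methods, with Benjamini-Hochberg adjustment over all rows and a threshold of 0.05. Exact permutation tests over the 8 arrays were two-sided. The fit was tested on simulated data. Within-genotype SDs were pooled over both genotypes.

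The Hox genes, gene lists and tests were chosen with earlier results of these data known. The genes named were those past the adjusted p, the 3 largest rises and falls, the 5 largest SDs, the highest mean of each paralog group and, in each list, up to 4 members past the threshold or else 2 with the lowest p. Some items are not reported here. Other Hox genes were named after their values were seen. The labels call the replicates biological without naming litters or sharing between numbers. Alternatives covered the test, prior, weights, replicate block, scaling, dim rows, fold cut-off and each array left out. Those leaving out Nfix-/- replicate 4 and wild-type replicate 1 together, or using the mean of Hoxc10 and Hoxd10 as a covariate, were chosen after seeing the data.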

Additional observations from a re-analysis of the deposited data

Results flagged for a closer look

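In each Hox gene and genotype, the gap between the most extreme array and the nearest other array was compared with the whole range of the 4 arrays. Of 66 such groups 7 had a gap above Dixon's critical value of 0.829, where chance gives about 1 in 20. Hoxc10 in Nfix-/- replicate 4 had a log2 signal of 4.73, while the other Nfix-/- arrays had 8.37 to 8.97. The same array was high for Hoxc6, with 9.39 against 9.19 to 9.22 in the others. Nfix-/- replicate 1 was low for Hoxb6, with 9.53 against 9.63 to 9.65, and high for Hoxd13, with 4.10 against 3.99 to 4.01. Nfix-/- replicate 3 was low for Hoxb8, with 10.79 against 10.83 in each of the others. In wild-type, replicate 3 was low for Hoxc4, with 8.35 against 8.51 to 8.52, and replicate 2 was low for Hoxc12, with 5.42 against 5.78 to 5.86. Apart from Hoxc10, the extreme array lay within 0.4 of the nearest other array on the log2 scale.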

How the results depend on the processing

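The counts of Hox genes higher and lower in Nfix-/- (2 and 1) were 2 and 0 with the methods' one-way test, 2 and 1 with a robust prior with trend, 3 and 2 with array weights, 0 and 0 after median scaling, 1 and 1 after quantile normalization, where the lower gene was Hoxc6, and 1 and 1 after cyclic loess. They were 1 and 0 among rows above the negative-control mark, 0 and 0 with the 1.5-fold cut-off, 1 and 0 without Nfix-/- replicate 4 and wild-type replicate 1 together (Hoxb13, adjusted p = 0.0270 from limma) and 0 and 1 with the mean of Hoxc10 and Hoxd10 as a covariate. Leaving out single arrays gave 0 to 1 higher and 0 to 2 lower. Apart from the fold cut-off, the share of the rows tested was 7.12% to 20.6% higher and 0.628% to 13.6% lower over these settings (15.2% and 13.6% with array weights, 10.8% and 7.38% after median scaling). The genes called differed: the 2 higher genes of the one-way test and of the robust prior were Hoxa2 and Hoxb7, without Hoxb13, and Hoxa2 was called in none of the omissions. The mean difference of paralog numbers 6 to 8 was 0.0531 after median scaling, -0.0770 after quantile normalization and -0.0820 after cyclic loess, and that of numbers 1 to 3 was -0.0182 and -0.0315 after the last 2 of these. The within-genotype SD of the mean of paralog numbers 10 to 13 was 0.275 without both arrays named, 0.270 to 0.455 with single arrays left out, and 1.52 among rows above the mark, where Hoxc10 alone remained.

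The difference of 16 Hox genes turned sign in at least 1 single omission, 4 of them named by the rule and 12 not. The differences of those 12 over all arrays were at most 0.18 in size, and that of Hoxd9 ran from -0.20 to 0.20 over the omissions. Genes named by the rule reversed direction as follows. Hoxc10 was at 0.45 with array weights and 0.54 without both arrays, and single omissions gave -0.50 to 0.91 (0.91 without Nfix-/- replicate 4, 0.18 without wild-type replicate 3). Hoxd10 ran from -0.10 (without wild-type replicate 1) to 1.29 and was -0.02 without Nfix-/- replicate 1. Hoxa10 was at -0.00592 after quantile normalization, -0.0239 after cyclic loess and -0.0241 with the covariate, and single omissions gave -0.16 to 0.324, with -0.16, -0.05 and -0.10 without Nfix-/- replicate 1, Nfix-/- replicate 3 and wild-type replicate 1. Hoxb8 was at -0.0116 with weights and at -0.0857 and -0.119 after quantile normalization and cyclic loess, and single omissions gave -0.0159 (without wild-type replicate 2) to 0.0263, with -0.00557 without wild-type replicate 4. After the same scalings Hoxb3 was at -0.0660 and -0.0697 and Hoxb9 at -0.0158 and -0.0167. The causes of these shifts were not tested.

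Between arrays of the same replicate number the correlation of deviations was 0.470, -0.151, 0.0401 and -0.0755, and 0 of 4 Nfix-/- arrays matched their own number best. The highest correlations were 0.660 between Nfix-/- replicate 4 and wild-type replicate 2 and 0.586 between Nfix-/- replicate 1 and wild-type replicate 3. The lowest was -0.626 between Nfix-/- replicate 1 and wild-type replicate 2. These correlations run over all rows and hold every difference between arrays, so they cannot settle whether arrays of 1 number shared a litter. With the replicate block 1 Hox gene was higher (Hoxb13, adjusted p = 0.0261 from limma) and 1 lower (Hoxd12, adjusted p = 0.0121). Hoxa2 and Hotair were not called. Each Hox gene had 1 row, so that the lowest-mean row gave no other value. Signals below the negative-control mark, among them all of paralog numbers 11 to 13, limit what the array can resolve.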

Other observations

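By cluster, the median within-genotype SD was 0.138 for the 8 measured genes of the A cluster on chromosome 6, 0.0851 for the 9 of the B cluster on chromosome 11, 0.155 for the 9 of the C cluster on chromosome 15 and 0.191 for the 7 of the D cluster on chromosome 2. The B cluster has no gene of paralog numbers 10 to 12. The median difference, Nfix-/- minus wild-type, was 0.05, 0.01, -0.02 and -0.01 for the A, B, C and D clusters, and each of A, B and D held 1 of the 3 Hox genes that passed the test.

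Among the rows of the clusters that carried several symbols, 2 are given on each array, with no gene assigned. The row annotated to both 5730446D14Rik and Hoxaas2 had log2 signals of 5.06, 4.88, 5.01 and 4.92 in Nfix-/- replicates 1 to 4, against 5.57, 5.54, 5.42 and 5.54 in wild-type replicates 1 to 4. The genotypes did not overlap, with a difference of -0.55 (adjusted p = 0.000888 from limma), and the row lay below the negative-control mark on every array. The rows annotated to Hoxa7 and Mira and to Hottip and Gm15053 were higher in Nfix-/- without overlap. Their differences were 0.12 and 0.14, and neither passed (adjusted p = 0.0823 and 0.0765 from limma). The row annotated to both Hoxa9 and Mir196b had 7.83, 7.82, 7.69 and 7.32 in Nfix-/- and 7.50, 7.80, 7.81 and 7.78 in wild-type, lowest on Nfix-/- replicate 4 and next lowest on wild-type replicate 1, the arrays that were lowest for paralog number 10.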
